A study of Mus musculus with 8 samples.

Results

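The genes described here encode the ligands, receptors and SMAD proteins of transforming growth factor beta (TGF-beta), bone morphogenetic protein (BMP) and activin signalling. They were chosen by symbol from the protein-coding rows of the count table: Tgfb1 to Tgfb3 and their receptors, numbered Bmp and Gdf genes, Bmpr and Acvr receptors, inhibin subunits, and Smad1, Smad2, Smad3, Smad5, Smad6, Smad7 and Smad9. This gave 48 of the 54532 genes in the table, and the rule itself uses symbols only, although results of these data were known when it was written. Of the 48, 37 passed the filter on low counts and were tested, and 11 did not pass.

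The libraries came from orthotopic pancreatic tumours of C57BL/6 mice, grown from implanted cells of the mouse line KPC, which comes from pancreatic ductal adenocarcinoma. Saline tumours (4 libraries) came from mice given saline for 2 weeks, and TLQP21 tumours (4 libraries) from mice given the peptide TLQP21 for 2 weeks. TLQP21 is cut from the neurosecretory protein VGF, and the submitters, who report smaller tumours under it, sequenced the tissue to look for the molecular basis of that effect. Age, sex, dose and route are not given in the sources used here, and the labels do not say whether each library is a separate animal. A p-value here thus sets a difference against the spread among these samples alone, and that spread can be technical in part. All groups share 1 implanted line, and whole tumours were sequenced, although the labels give the cell type as pancreatic cancer cells. All 7 tumour epithelial markers looked up, such as Epcam and Krt19, had reads in every library, with summed levels of 5909 to 6428 CPM (counts scaled to the same library total, in counts per M) in Saline and 6390.1 to 6685 in TLQP21.

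In this family, a secreted ligand brings together type I and type II receptor kinases, and the type I kinase phosphorylates receptor-regulated SMADs, which enter the nucleus and act on transcription. TGF-beta and activin act mainly through Smad2 and Smad3, and BMPs through Smad1, Smad5 and Smad9, while Smad6 and Smad7 are induced by the pathway and damp it. In pancreatic cancer TGF-beta is known as a growth brake on epithelial cells and as a driver of matrix-producing fibroblasts. In whole tumours, fewer cells of a type and less RNA per cell cannot be told apart.

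Libraries held 28.4 to 33.5 M counts, and the 48 genes together took 0.180% to 0.206% of them. Libraries 1 and 2 of each group held Xist reads, and libraries 3 and 4 Y-linked reads, a split that the labels do not give. One library, Saline 2, held liver transcripts, described below. Saline 4 had the highest summed levels of 12 acinar markers (53253 CPM, where Saline 1 to 3 ran from 11281 to 23892 and TLQP21 from 10782 to 29654) and of 7 neutrophil markers (815 CPM, where Saline 1 to 3 ran from 227 to 339 and TLQP21 from 163 to 316). None of these markers was at 0 in any library.

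Across the treatments the family did not separate. In edgeR's quasi-likelihood test none of the 37 tested members passed an adjusted p of 0.05, beside 0% of all 18238 genes tested, and all 37 had an adjusted p = 0.9999. No member had an unadjusted p under 0.05, where 3.06% of all genes did (0.795% higher and 2.26% lower in TLQP21), and the smallest was 0.0755, for Gdf15. Without Saline 2, the library with liver transcripts, edgeR gave an unadjusted p under 0.05 for 0 members and 2.34% of all genes. For no member were the groups apart without overlap, against 1.66% of all genes (0.811% with TLQP21 above and 0.844% with it below). Of the 37, 21 (56.8%) had a log2 fold change above 0 (TLQP21 minus Saline), against 50.6% of all genes, and 16 lay below 0, against 49.4%. The median was 0.01, and over all genes tested 0.00. DESeq2 and limma's voom with sample quality weights also called 0 members, with 1 of 45 at an unadjusted p under 0.05 by DESeq2 (2.3% of all genes) and 2 of 37 by limma (10.6% of all genes).

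How large a difference these libraries leave room for is given by the 95% intervals of the fold changes. For 30 of the 37 members (81.1%, against 79.6% of all genes) the interval lay within 2-fold in both directions. For 20 members (54.1%, against 55.1%) it lay within 1.5-fold. The 3 narrowest intervals belonged to Acvr1b, Tgfbr2 and Smad5, and that of Tgfbr2 ran from -0.19 to 0.20 on the log2 scale. The 3 widest belonged to Bmp3 and Acvr1c, with 211 and 79 reads over all libraries, and to Gdf3, with 740. That of Bmp3 ran from -1.29 to 1.44.

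**Figure D1:**
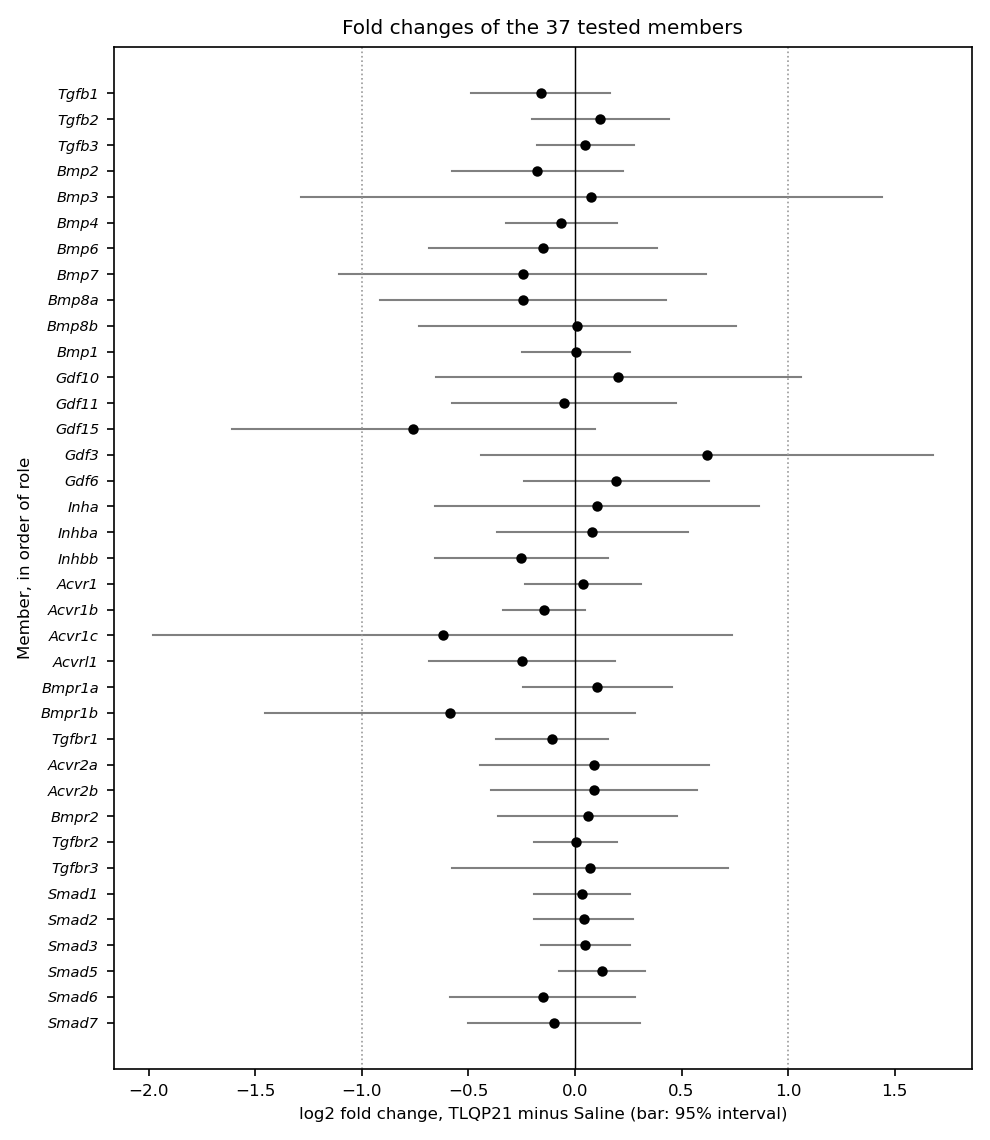
Log2 fold changes (TLQP21 minus Saline, horizontal axis) of the 37 tested members in order of role, with bars for the 95% interval and dotted lines at 2-fold. Every interval includes 0, and 30 of 37 lie between the dotted lines.

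The 3 TGF-beta ligands differed in level. Per gene length, as FPKM (CPM per kilobase of the deposited gene length), Tgfb1 was at 24.2 ± 4.20 in Saline and 21.6 ± 3.22 in TLQP21 (SD, n = 4 here and below). Tgfb3 was at 18.7 ± 2.27 and 19.4 ± 1.23 FPKM, and Tgfb2 at 2.33 ± 0.194 and 2.53 ± 0.406. The ranges of Tgfb1 and Tgfb3 overlapped over the 8 libraries, and Tgfb2 lay below both in every library.

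Tgfb1, the isoform of immune and stromal cells, stood at 116, 117, 103 and 152 CPM in Saline 1 to 4. In TLQP21 1 to 4 it stood at 123, 111, 117 and 85.9 CPM (log2 fold change -0.16, SE 0.15). Saline 4 was the highest and TLQP21 4 the lowest library, and the other 6 lay between 103 and 123 CPM. Without both of these libraries, a choice made after seeing the data, the fold change was 0.06. Tgfb3, linked to mesenchymal tissue, was at 69.9, 55.1, 58.3 and 69.8 CPM in Saline and at 65.5, 71.0, 61.1 and 64.2 in TLQP21 (0.05, SE 0.10). The Tgfb3 groups covered much the same range. Tgfb2 ran from 12.5 to 14.98 CPM in Saline and from 11.7 to 16.8 in TLQP21 (0.12, SE 0.14). Tgfb3 overlaps Ttll5 on the opposite strand, and since the strand setting of the counting is not given in the sources used here, reads of the overlap cannot be told apart.

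**Figure D2:**
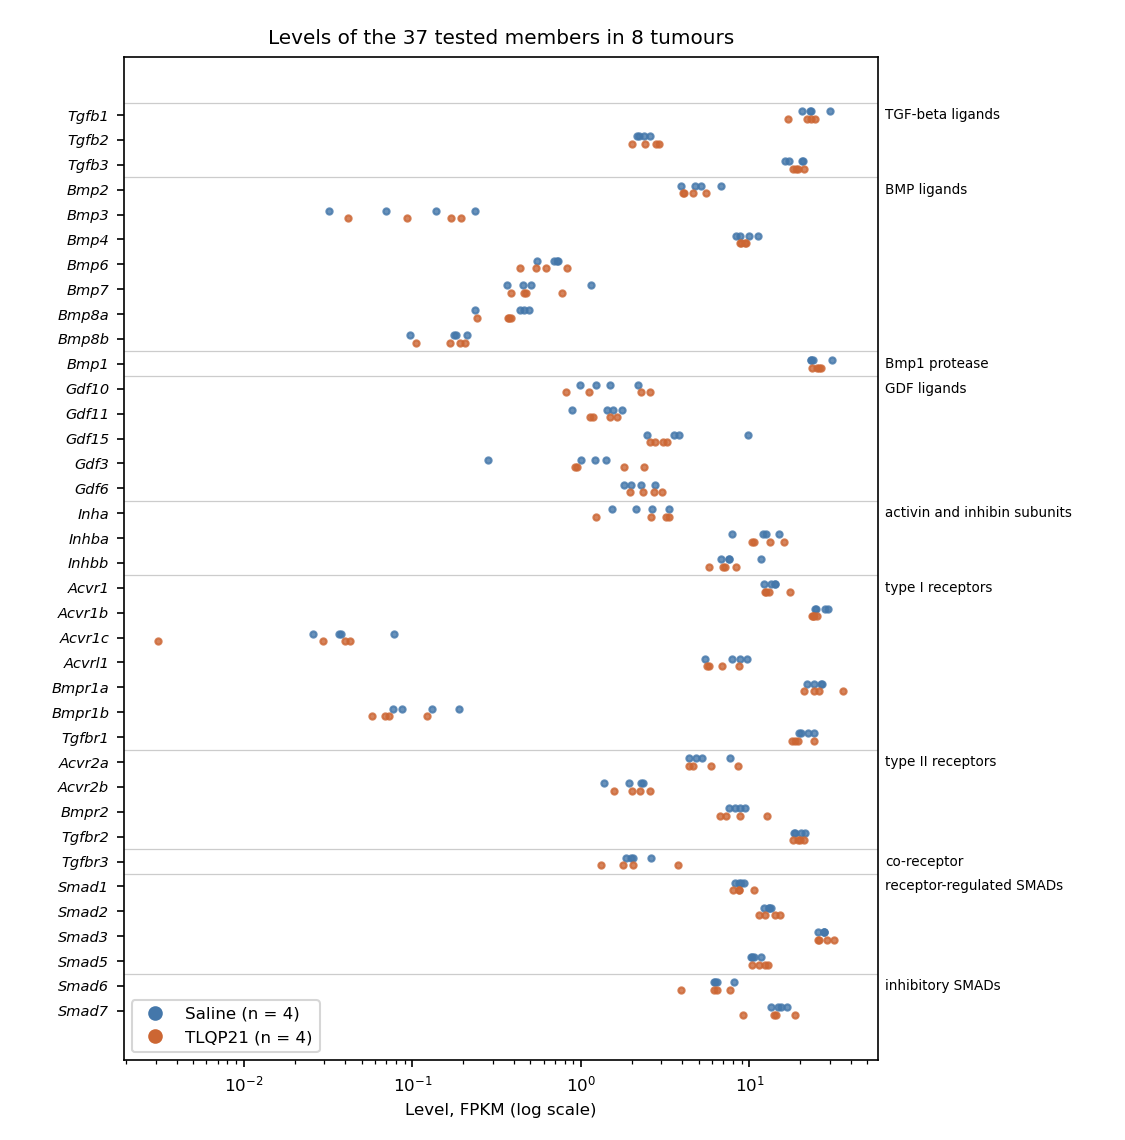
Level per gene length (FPKM, log axis) of the 37 tested members by role, with 1 point for each of 4 Saline and 4 TLQP21 libraries. Mean levels run from 0.0366 FPKM (Acvr1c) to 27.5 (Smad3), and for each of them the points of the groups overlap.

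Among the 10 BMP ligands, Bmp4 and Bmp2 were the most abundant, at 9.59 ± 1.30 and 5.17 ± 1.20 FPKM in Saline and 9.17 ± 0.366 and 4.57 ± 0.697 in TLQP21. Bmp4, a ligand of mesoderm and epithelial patterning, was at 25.3, 19.8, 18.8 and 22.4 CPM in Saline and at 19.9, 19.9, 21.5 and 21.1 in TLQP21 (-0.06, SE 0.12). The TLQP21 libraries sat close together inside the Saline range. Bmp2, an inducer of bone and cartilage, was at 18.4, 16.9, 14.0 and 24.2 CPM in Saline and at 14.5, 14.4, 16.4 and 19.7 in TLQP21 (-0.18, SE 0.18). Library 4 was the highest of each group. The next 5 ligands by level, Bmp6, Bmp7, Bmp8a, Bmp8b and Bmp3, averaged 0.122 to 0.638 FPKM, with log2 fold changes from -0.25 to 0.08.

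Bmp7, known as a counterweight to TGF-beta in kidney, was at 4.61 CPM in Saline 4 and at 1.47 to 2.04 in the other Saline libraries, and at 1.54 to 3.09 in TLQP21. Bmp8a stood at 1.19, 1.05, 1.10 and 0.567 CPM in Saline and at 0.582, 0.892, 0.930 and 0.896 in TLQP21 (-0.24, SE 0.30). Bmp8a and its near-identical copy Bmp8b were both lowest in Saline 4 and TLQP21 1. They lie 180.5 kb apart on chromosome 4, and reads may be split between them, so their values are uncertain. Bmp6 overlaps Txndc5 and Bmp8b overlaps Ppie on opposite strands, both far more abundant than the ligand, which adds to the doubt.

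Bmp1 carries the BMP name but is a metalloprotease that trims procollagen and frees BMPs from the antagonist chordin. It was among the most abundant of the 48, at 25.3 ± 3.85 FPKM in Saline and 25.3 ± 1.39 in TLQP21. Its levels were 205, 211, 206 and 275 CPM in Saline and 237, 223, 231 and 208 in TLQP21 (0.00, SE 0.11, 95% interval -0.25 to 0.26). Saline 4 stood above all other libraries.

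The growth differentiation factors (GDFs) included the members with the largest fold changes upward and downward. Gdf15, a stress cytokine that signals appetite loss through a brainstem receptor, was at 6.603, 7.11, 4.56 and 18.3 CPM in Saline. In TLQP21 it was at 4.79, 5.07, 6.04 and 5.68 (-0.76, SE 0.38, 95% interval -1.61 to 0.09). Saline 4 alone stood above 7.11 CPM, and without it the fold change was -0.18. Without Saline 3, the lowest library, it was -0.98, with an unadjusted p of 0.0202 (adjusted p = 0.970 by edgeR), and DESeq2 gave an unadjusted p of 0.0341 on the data of all libraries. Saline 4 also had the highest acinar and neutrophil marker levels given above, and their part in the Gdf15 value was not tested. Gfral, the receptor of GDF15, had 7 reads over all 8 libraries.

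Gdf3, a NODAL-like ligand of the early embryo, was at 2.93, 3.43, 2.44 and 0.681 CPM in Saline and at 4.34, 5.73, 2.29 and 2.22 in TLQP21 (0.62, SE 0.47). TLQP21 1 and 2 were the highest libraries and Saline 4 the lowest, and without Saline 4 the fold change was 0.31. Gdf6, a ligand of joint and eye development, was at 7.05, 6.34, 9.75 and 7.98 CPM in Saline and at 9.61, 8.29, 10.8 and 6.95 in TLQP21 (0.19, SE 0.19). The groups overlapped over most of their range. Gdf10 ran from 5.11 to 11.4 CPM in Saline and from 4.23 to 13.5 in TLQP21, and Gdf11 from 3.60 to 7.11 and from 4.58 to 6.62.

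Of the activin and inhibin subunits, Inhba was the most abundant, at 11.9 ± 2.93 FPKM in Saline and 12.6 ± 2.69 in TLQP21. Its homodimer is activin A. It stood at 95.7, 77.4, 50.6 and 79.6 CPM in Saline and at 67.6, 65.8, 84.9 and 102 in TLQP21 (0.08, SE 0.20). Saline 3 was the lowest and TLQP21 4 the highest. Inhbb, the subunit of activin B, was at 32.1, 32.3, 28.7 and 49.7 CPM in Saline and at 35.3, 30.5, 29.7 and 24.5 in TLQP21 (-0.25, SE 0.18). Saline 4 again stood highest, and without it the fold change was -0.06. Without Saline 4 and TLQP21 4 together it was 0.03. Inha, the alpha subunit that turns activins into inhibins, ran from 2.27 to 4.90 CPM in Saline and from 1.82 to 4.92 in TLQP21 (0.10, SE 0.34).

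The liver is the known source of 3 members, and in these data their reads came from 1 library. Inhbc had 41 reads in Saline 2 and 1 read in the other 7 libraries together. Inhbe had 51 reads in Saline 2 and 3 in the other 7. Gdf2, the circulating ligand BMP9, had 21 reads in Saline 2 and 2 in the other 7. None of these 3 passed the filter on low counts, so they did not enter the main test. Inhbe and Inhbc are neighbours on chromosome 10 on the same strand, 1.91 kb apart, and Gdf2 lies on chromosome 14, 3.055 kb from Gdf10, whose reads did not follow that pattern.

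Saline 2 also carried liver markers. Of 9 hepatocyte markers 8 were found in the table, and their summed level was 4588 CPM in Saline 2, 8.82 to 9.91 in the other Saline libraries and 6.43 to 9.36 in TLQP21. Albumin (Alb) had 72633 reads in Saline 2 and 2 to 13 in each of the others. The fibrinogen gene Fgb had 12115 reads there and was at 0 in Saline 4, TLQP21 1 and TLQP21 3. Beside them stood other liver genes of BMP signalling. Hjv (listed as Hfe2), the BMP co-receptor hemojuvelin, had 50 reads in Saline 2 and 5 in the other 7 libraries. Hamp, which encodes the iron hormone hepcidin and is a classic BMP response gene of hepatocytes, had 398 reads there and 0 to 4 in each of the others, with a near-identical copy, Hamp2, that makes its count uncertain. Bmp6, the ligand best known for driving hepcidin, showed no such excess, at 2.84 CPM in Saline 2 and 1.70 to 3.22 elsewhere. Tfr2, looked up with these genes, showed none either, at 91.1 CPM in Saline 2 and 66.1 to 100.7 elsewhere. The part of liver tissue in these counts was not tested beyond this.

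**Figure D3:**
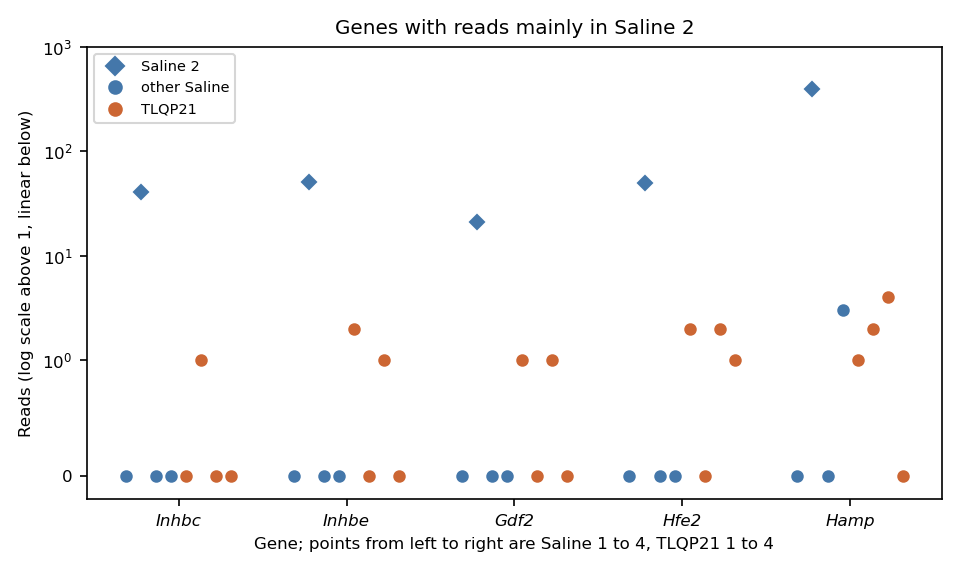
Reads of Inhbc, Inhbe, Gdf2, Hfe2 (Hjv) and Hamp in each library (vertical axis, logarithmic above 1 read and linear below). Saline 2, the diamond, holds 21 to 398 reads of each gene, and every other library at most 4.

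The promoters of Inhbc and Hamp are shown because these genes had reads in the same library. The windows are taken from RefSeq on GRCm38.p6, 5′ to 3′ from 250 bases before the RefSeq start of the gene to 50 after. That start can differ from the start of the gene as counted. The Inhbc window is chr10:127370499-127370798 on the minus strand, with the SMAD binding element CAGACA in capitals. The Hamp window is chr7:30943980-30944279 on the minus strand, with the GC-rich sequence GGCGCC, known from BMP response elements, in capitals.
Inhbc: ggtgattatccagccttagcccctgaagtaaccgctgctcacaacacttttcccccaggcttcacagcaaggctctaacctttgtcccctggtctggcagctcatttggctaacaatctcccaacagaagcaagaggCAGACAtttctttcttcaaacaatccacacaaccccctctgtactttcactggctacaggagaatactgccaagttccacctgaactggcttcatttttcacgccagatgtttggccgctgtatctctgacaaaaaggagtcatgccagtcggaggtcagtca
Hamp: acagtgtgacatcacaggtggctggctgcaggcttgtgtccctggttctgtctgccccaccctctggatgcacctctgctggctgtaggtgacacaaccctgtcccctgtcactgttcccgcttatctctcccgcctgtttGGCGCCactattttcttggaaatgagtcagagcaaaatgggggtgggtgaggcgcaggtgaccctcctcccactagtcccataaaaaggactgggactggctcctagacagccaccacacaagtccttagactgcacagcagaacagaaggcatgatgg
The GGCGCC match of Hamp began 109 bases before the RefSeq start of the gene and the CAGACA match of Inhbc 113 bases before it. The Inhbc window lies wholly outside the gene as counted, whose span begins at 127370431 on the minus strand. Searched on both strands, CAGACA was found in 6913 of all 32851 promoters in the RefSeq table and GGCGCC in 3898 (11.9%). Of the 48 members, 35 had a promoter there, in 43 windows, of which 14.0% held CAGACA and 20.9% GGCGCC. These matches describe letters and are not evidence of binding.

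The other 8 members below the filter were the oocyte factor Gdf9 with 67 reads over all 8 libraries, Bmp5 with 41, Smad9 with 34, Bmp15 with 33, Bmp10 with 11, Gdf7 with 7, Gdf5 with 4 and Gdf1 with 0. Of the 11 reads of Bmp10, 7 were in Saline 2. Gdf1 lies within the annotated span of Cers1 on the same strand, and how shared reads were assigned is not given in the sources used here. A count of 3 reads, the limit that a count of 0 allows in a library, corresponds to 0.0864 to 0.113 CPM, counting error only.

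Receptors of TGF-beta, activin and BMP were all read in every library. Among type I receptors, Bmpr1a (for BMPs) was at 24.9 ± 2.29 FPKM in Saline and 26.8 ± 6.44 in TLQP21, Acvr1b (for activin) at 26.6 ± 2.41 and 24.1 ± 0.744, and Tgfbr1 (for TGF-beta) at 21.6 ± 2.10 and 20.1 ± 2.89. Acvr1b had the smallest p after Gdf15, with 124, 109, 108 and 129 CPM in Saline and 111, 105, 107 and 103 in TLQP21 (-0.15, SE 0.09). The 2 highest libraries were Saline 1 and 4, and the other 6 lay within 103 to 111 CPM.

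Acvrl1 encodes ALK1, the endothelial receptor of BMP9, and was at 33.7, 37.5, 23.3 and 41.0 CPM in Saline and 36.8, 29.2, 24.5 and 23.7 in TLQP21 (-0.25, SE 0.19). Saline 4 was highest and Saline 3 lowest, and without Saline 3 the fold change was -0.39 with an unadjusted p of 0.0441 by edgeR (adjusted p = 0.970). The summed level of 8 endothelial markers, all of them read in every library, was 392 CPM in Saline 4, 253 to 276 in the other Saline libraries and 263 to 368 in TLQP21. Their part in the Acvrl1 value was not tested.

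Acvr1, the receptor mutated in fibrodysplasia ossificans progressiva, was at 68.2, 64.6, 59.1 and 68.9 CPM in Saline and 59.7, 60.2, 63.3 and 84.6 in TLQP21 (0.04, SE 0.12). Only TLQP21 4 left the range of the Saline libraries upward. Acvr1c and Bmpr1b were close to absent, at 0.0366 and 0.101 FPKM over the 8 libraries. Acvr1c had 0.340, 0.350, 0.240 and 0.719 CPM in Saline and 0.274, 0.0288, 0.398 and 0.371 in TLQP21, the lowest of which is 1 read (-0.62, SE 0.61). This value was unsteady, at -0.23 without Saline 4 and also without TLQP21 2, and at -2.10 with limma's voom (adjusted p = 0.398). Bmpr1b had 0.783, 0.455, 0.515 and 1.13 CPM in Saline and 0.411, 0.345, 0.731 and 0.432 in TLQP21 (-0.59, SE 0.39). The intervals of both reached past 2-fold, so a 2-fold lower level was within the range that these counts leave.

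Among type II receptors, Tgfbr2 was the most even of all 37 members, at 153, 149.9, 166 and 175 CPM in Saline and 173, 159, 149 and 163 in TLQP21 (0.00, SE 0.09). Its coefficient of variation over the 8 libraries was 6.29%, against a median of 19.8% over the members. Bmpr2, mutated in heritable pulmonary hypertension, was at 169, 136, 159 and 148 CPM in Saline and 131, 119.7, 157 and 229.6 in TLQP21 (0.06, SE 0.19). Without TLQP21 4, which stood above all other libraries, the fold change was -0.17. Acvr2a, whose gene overlaps Orc4 on the opposite strand, ran from 24.9 to 43.5 CPM in Saline and from 24.9 to 48.6 in TLQP21, and Acvr2b from 5.35 to 9.16 and from 6.19 to 10.03. Tgfbr3, the co-receptor betaglycan, was at 13.0, 12.0, 13.4 and 17.0 CPM in Saline and 24.7, 11.7, 8.63 and 13.2 in TLQP21 (0.07, SE 0.29). TLQP21 1 held the highest level, and without it the fold change was -0.31.

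Bmpr1a, at 168, 153, 171 and 139.5 CPM in Saline and 135, 153, 163 and 229 in TLQP21 (0.11, SE 0.16), was also highest in TLQP21 4, and without that library its fold change was -0.08. The promoters of Bmpr1a and Bmpr2 are shown because both receptors stood highest in that library and both windows hold GGCGCC, in capitals. GGCGCC was found for 8 members. Of these, Smad5, Tgfbr1 and the scarce Smad9 were also highest in TLQP21 4, Acvr1b and Gdf10 were lowest there, and Gdf1 had 0 reads. Acvr1, Acvr2a, Smad1, Smad2, Smad3, Inhba and Tgfb2, highest there too, were not among the 8, though not every member had a window. A link between sequence and level was not tested. The RefSeq windows on GRCm38.p6 are chr14:34502497-34502796 on the minus strand for Bmpr1a and chr1:59764029-59764328 on the plus strand for Bmpr2.
Bmpr1a: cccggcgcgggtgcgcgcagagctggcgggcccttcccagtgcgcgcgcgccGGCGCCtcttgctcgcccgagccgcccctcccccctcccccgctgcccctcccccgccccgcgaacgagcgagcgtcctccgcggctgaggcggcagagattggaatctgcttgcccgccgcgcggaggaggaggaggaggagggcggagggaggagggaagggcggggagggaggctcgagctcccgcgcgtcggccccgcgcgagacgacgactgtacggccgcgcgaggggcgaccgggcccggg
Bmpr2: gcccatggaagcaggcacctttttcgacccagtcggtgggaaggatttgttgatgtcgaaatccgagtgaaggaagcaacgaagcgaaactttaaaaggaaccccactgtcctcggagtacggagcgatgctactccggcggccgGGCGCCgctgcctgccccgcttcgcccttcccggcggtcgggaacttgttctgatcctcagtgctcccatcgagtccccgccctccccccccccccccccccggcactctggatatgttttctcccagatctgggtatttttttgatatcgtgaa
The match began 198 bases before the RefSeq gene start in Bmpr1a and 105 in Bmpr2. Both windows lie inside the gene as counted. The counted span begins at 34503341 on the minus strand for Bmpr1a and at 59763400 on the plus strand for Bmpr2.

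The receptor-regulated SMADs varied little. Smad3 was at 27.1 ± 1.08 FPKM in Saline and 28.0 ± 3.00 in TLQP21, Smad2 at 12.9 ± 0.480 and 13.3 ± 1.69, Smad5 at 10.7 ± 0.673 and 11.8 ± 1.09, and Smad1 at 8.77 ± 0.446 and 8.99 ± 1.14. Smad3 was at 153, 141, 153 and 153 CPM in Saline and 144, 141, 159 and 177 in TLQP21 (0.05, SE 0.09). Smad2 was at 46.3, 43.4, 47.4 and 46.2 CPM in Saline and 40.4, 44.1, 50.2 and 53.7 in TLQP21 (0.04, SE 0.10). For both, TLQP21 4 was the highest library, and without it the fold changes were -0.02 and -0.03. Smad5 was at 79.3, 76.6, 87.0 and 76.2 CPM in Saline and 77.2, 84.5, 91.6 and 95.5 in TLQP21 (0.13, SE 0.09, 95% interval -0.07 to 0.33). TLQP21 3 and 4 were above every Saline library for Smad5, and TLQP21 1 and 2 were not.

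The inhibitory SMADs, which feed back on the pathway, were lowest in TLQP21 4. Smad7 was at 75.1, 69.2, 60.6 and 66.9 CPM in Saline and 63.1, 65.3, 84.0 and 41.6 in TLQP21 (-0.10, SE 0.18). Smad6 was at 19.6, 20.0, 26.0 and 20.5 CPM in Saline and 20.5, 19.9, 24.6 and 12.5 in TLQP21 (-0.15, SE 0.19). TLQP21 3 and 4 thus held the highest and lowest Smad7 levels of all 8 libraries, within 1 treatment group. Without TLQP21 4 the fold changes were 0.05 and 0.00. The Smad6 promoter (RefSeq, GRCm38.p6, chr9:64022010-64022309, minus strand) is shown because it alone among the 43 windows of members held the SMAD palindrome GTCTAGAC, in capitals.
Smad6: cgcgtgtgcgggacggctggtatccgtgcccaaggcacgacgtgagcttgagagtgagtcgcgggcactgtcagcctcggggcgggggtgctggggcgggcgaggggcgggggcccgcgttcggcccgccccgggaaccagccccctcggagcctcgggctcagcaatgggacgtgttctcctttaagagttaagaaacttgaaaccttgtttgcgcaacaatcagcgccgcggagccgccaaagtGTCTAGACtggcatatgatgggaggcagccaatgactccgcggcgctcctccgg
The palindrome began 4 bases before the start of the gene and was found in 0.213% of all promoters in the table.

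**Figure D4:**
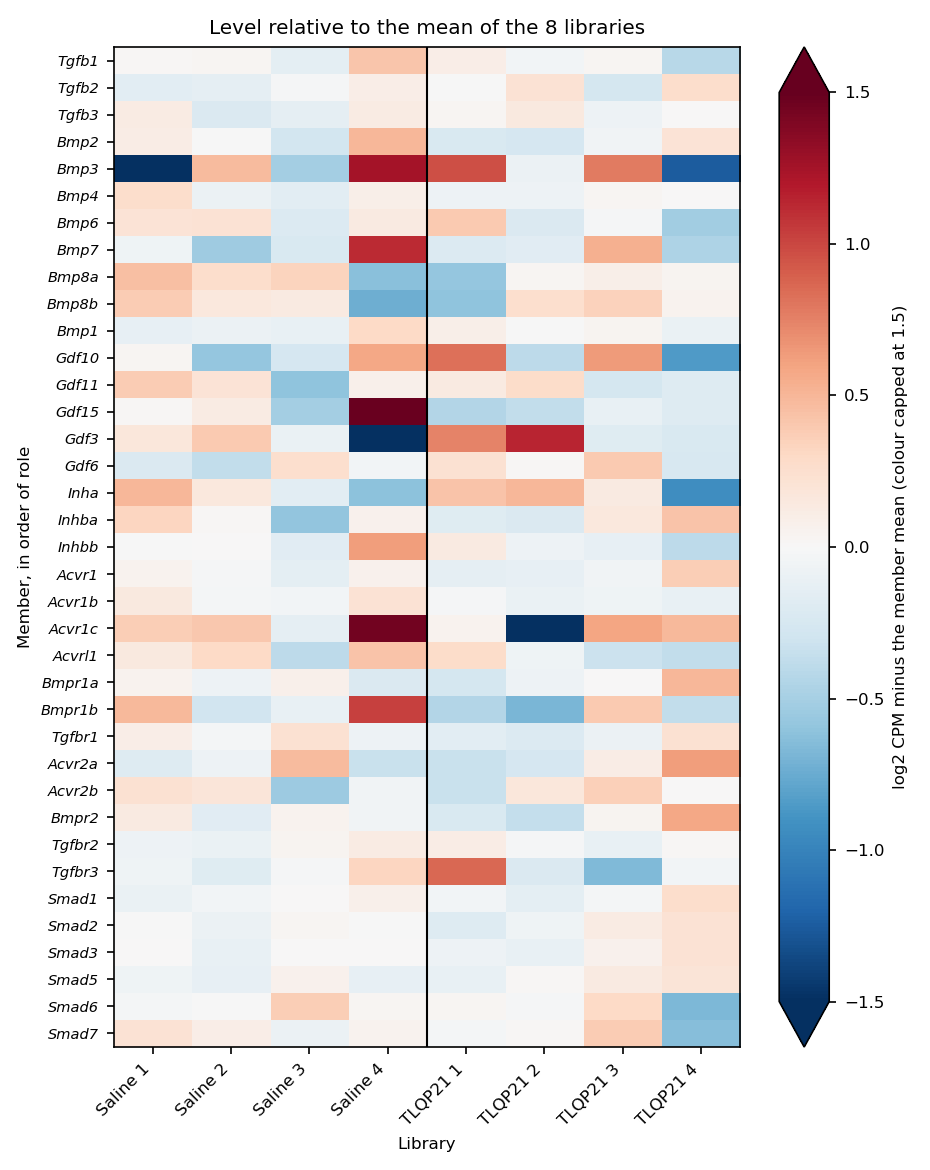
Level of each tested member in each library as log2 CPM minus the member's mean over the 8 libraries (colour capped at 1.5), with the black line between Saline and TLQP21. No block of colour follows the line, while the columns of Saline 4 and TLQP21 4 stand out, with 12 and 11 members at their highest.

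The libraries differed in how many members had their highest or lowest level there. Saline 4 had the highest level of 12 of the 37 members (32.4%), where it had the highest of 16.5% of all genes tested. It had the lowest level of 5 (13.5%, against 17%). Saline 3 had the lowest of 8 (21.6%, against 11.4%) and the highest of 1 (2.7%, against 10.9%). TLQP21 4 had the highest of 11 (29.7%, against 26.8%) and the lowest of 8 (21.6%, against 27.2%), so its share of members was near that of all genes. In TLQP21 4 the 11 included Bmpr1a, Bmpr2, Acvr1, Acvr2a, Smad1, Smad2, Smad3 and Smad5, and the 8 included Smad6, Smad7, Tgfb1, Inha and Inhbb. Transcripts of the mitochondrial genome took 2.80% of its counts and 1.74% to 2.21% of those in the other libraries, and its part in these values was not tested. Without Saline 4 and TLQP21 4 together, 17 of 37 members lay above 0, 0 passed the threshold and 1 had an unadjusted p under 0.05 (edgeR), beside 4.2% of all genes.

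Other genes of the pathway, from lists of regulators and responders, held no calls either. Of 24 co-receptors and intracellular regulators 22 were tested and 0 passed in either direction (17 above 0, median 0.06), among them the corepressor Tgif2 at 3.93 ± 0.358 and 5.05 ± 0.811 CPM and the TGF-beta co-receptor Cd109 at 5.03 ± 1.11 and 6.51 ± 1.11. The most abundant per length was Fkbp1a, whose product binds type I receptors, at 419.6 ± 43.0 and 453 ± 28.4 CPM. Of 15 genes of TGF-beta latency and activation, 0 passed (8 above 0, median 0.05). The microfibril gene Fbn2 was at 28.5 ± 3.67 and 34.6 ± 4.91 CPM and Nrros, a tether of latent TGF-beta on myeloid cells, at 45.4 ± 8.61 and 34.5 ± 10.99. Thbs1, an activator of latent TGF-beta, was the most abundant of them per length, at 678 ± 144 and 700.2 ± 192 CPM.

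Of 22 extracellular antagonists 19 were tested and 0 passed (10 above 0, median 0.01). The smallest p belonged to Wfikkn2, at 0.607 ± 0.547 and 0.322 ± 0.154 CPM (-0.89), and Chrdl2, at 0.346 ± 0.0761 and 0.501 ± 0.226 (0.52), both of few reads. Grem1, a BMP antagonist of stroma, was at 34.7 ± 10.6 and 29.4 ± 1.88 CPM, and the activin antagonist Fst at 52.4 ± 3.04 and 52.7 ± 5.57. Fstl1 was the most abundant, at 317 ± 41.5 and 340.2 ± 32.9 CPM. Of 7 other ligands and receptors of the family, Lefty1 alone passed the filter on low counts, at 10.7 ± 2.20 and 11.7 ± 0.855 CPM.

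Genes known to respond to TGF-beta did not pass either: 0 of 21, with 9 above 0 and a median of -0.02. Smooth muscle actin (Acta2) and periostin (Postn) had unadjusted p of 0.0387 and 0.0478 by edgeR (0.32 and 0.37, adjusted p = 0.9999). They were 2 of 21 at an unadjusted p under 0.05, both higher in TLQP21, beside 3.06% of all genes (0.795% higher). Beside them, the summed level of 8 fibroblast markers was 540.1 to 833 CPM in Saline and 583 to 889 in TLQP21, and that of 7 smooth muscle and pericyte markers 193 to 245 and 219.7 to 277, all of them read in every library, and their part was not tested. Igfbp3, a carrier of insulin-like growth factors, was 1 of 21 whose groups did not overlap, beside 1.66% of all genes (0.811% with TLQP21 above), at 466 ± 16.3 and 522 ± 14.5 CPM (0.17, SE 0.08). The early TGF-beta target Ctgf, now Ccn2, was at 269 ± 40.6 and 281 ± 60.1 CPM, a difference smaller than the spread within the groups. Fn1 was the most abundant, at 3424 ± 538 and 3626 ± 417 CPM. The response genes named so far all lay above 0, while 12 of the 21 lay below. Of those below, the smallest p belonged to Ltbp2, at 187 ± 17.1 and 164 ± 9.47 CPM (-0.19, SE 0.09). Of 10 BMP response genes 8 were tested and 0 passed (3 above 0, median -0.05), with Id1 at 66.4 ± 4.38 and 58.8 ± 9.36 CPM, Id3 at 38.9 ± 13.0 and 33.5 ± 7.03, and Id2 at 116 ± 6.48 and 116 ± 20.5.

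The split by Xist and Y-linked reads allowed the treatment contrast to be set side by side in 2 against 2 libraries of each kind. No gene passed in edgeR's test of the difference between the kinds (0 of 18238, 0%, with 4.8% at an unadjusted p under 0.05), and among the members 1 of 37 (2.7%) had an unadjusted p under 0.05. That member was Inhba. In libraries with Xist it was at 95.7 and 77.4 CPM in Saline and 67.6 and 65.8 in TLQP21 (log2 ratio of means -0.38). In those with Y-linked reads it was at 50.6 and 79.6 in Saline and 84.9 and 102 in TLQP21 (0.53). TLQP21 thus lay below Saline in 1 kind and above it in the other, a difference of 0.90 on the log2 scale. Its adjusted p of 0.842 in edgeR's quasi-likelihood test does not pass, and the unadjusted p was 0.0176. Leaving out each library in turn, the adjusted p of Inhba ran from 0.162 to 0.9993, while the count of all genes called reached 15 without Saline 1 and 73 without TLQP21 3. Each of these fits has 1 library alone in its treatment and kind, which is assumed to vary like the others, so the spread behind them comes from the other 3 pairs of libraries. The next smallest p belonged to Bmpr2 (0.0516), Tgfbr3 (0.0787) and Acvr2b (0.0886), all with an adjusted p of 0.842.

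**Figure D5:**
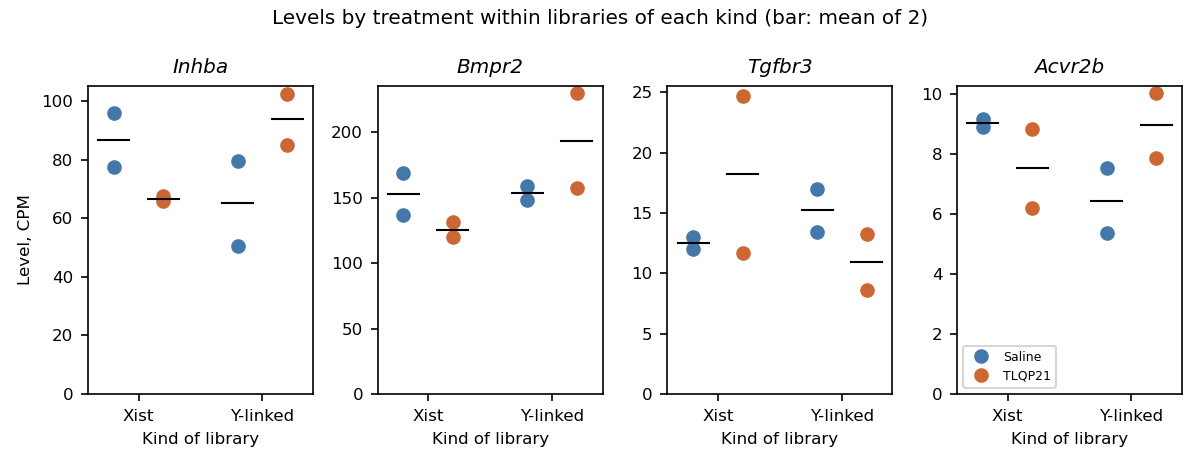
Level (CPM) of the 4 members with the smallest p for a difference of the treatment contrast between libraries with Xist and with Y-linked reads, with 1 point per library and bars for the mean of 2. For Inhba the treatments order one way in the first kind and the other way in the second, with an adjusted p of 0.842.

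Between the kinds themselves, with treatment in the model, 0 of 37 members passed in edgeR's test, beside 0.373% of all genes, and 4 (10.8%, against 13.6%) had an unadjusted p under 0.05. Gdf3 was at 4.11 ± 1.23 CPM in the 4 libraries with Xist and 1.91 ± 0.823 in the 4 with Y-linked reads, Inha at 4.60 ± 0.487 and 2.76 ± 0.889, and Gdf11 at 6.51 ± 0.469 and 4.69 ± 0.895. Acvr2a was higher with Y-linked reads, at 27.1 ± 2.02 and 37.7 ± 10.5 CPM. Their adjusted p ran from 0.226 to 0.330.

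On GRCm38, as in the table, Tgfb1 (ENSMUSG00000002603) lies on chromosome 7 from 25687002 to 25705077 on the plus strand. Gdf15 (ENSMUSG00000038508) lies on chromosome 8 from 70629393 to 70632456 on the minus strand, and Inhba (ENSMUSG00000041324) on chromosome 13 from 16011851 to 16031621 on the plus strand. Smad6 (ENSMUSG00000036867) and Smad3 (ENSMUSG00000032402) are neighbours on chromosome 9, 195.1 kb apart, from 63953076 to 64022059 and from 63646767 to 63757994, both on the minus strand. Acvr1b and Acvrl1 lie 28.73 kb apart on chromosome 15, and Acvr1 and Acvr1c 30.75 kb apart on chromosome 2. The neighbours differed in level: Acvr1 was at 13.7 FPKM over the 8 libraries where Acvr1c was at 0.0366.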

How the data were processed

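The authors deposited raw counts, as whole numbers without scaling, for 54532 genes in 8 libraries, beside a gene length in bases. HISAT2 2.0.5, featureCounts 1.5.0-p3, DESeq2 1.32.0 and build GRCm38 (mm10) are named in the submitters' processing notes. The strand setting, the annotation release and how gene lengths were made are not given in the sources used here. Libraries held 28.4 to 33.5 M counts. No library was a copy of another: comparing counts over genes, chi-square divided by its degrees of freedom was at least 21.1 for each pair. All 48 members were found in GENCODE M21, 47 with the same coordinates. Of listed genes, Hjv and Ccn2 were matched by older symbols and Tf was not found.

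From the counts, 18238 genes passed edgeR's default filter by group. The quasi-likelihood test of edgeR 4.0.16 (R 4.3.3) used TMM scaling and no covariates, with Benjamini-Hochberg adjustment over all genes that passed and a threshold of 0.05. CPM and FPKM use TMM-scaled library sizes. DESeq2 1.42.0, limma 3.58.1, other scalings and filters, a replicate block, the kind of library as a covariate and leaving out libraries were alternatives. Libraries with 1000 or more Xist reads were set apart from those with Y-linked reads (Ddx3y, Eif2s3y, Kdm5d and Uty). The members and lists were chosen with earlier results of these data known. Members given in every library were the 10 with the smallest p, those with an outlying library and the 2 most abundant per role. Of other pathway lists, up to 4 genes with the smallest p could be named, of which some are given, and the most abundant. Ctgf, Fst, Bmp7, Hjv and the liver genes were added after their values were seen. The comparison between kinds of library was also added.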

Additional observations from a re-analysis of the deposited data

Results flagged for a closer look

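Among 74 sets of 4 libraries (37 members in each treatment group), 6 had a library flagged by Dixon's ratio. This ratio is the gap to the nearest neighbour divided by the range of the set, and it exceeded the 95% critical value for sets of this size. A small gap is thus flagged where the other libraries lie close together. Chance flags about 1 in 20 such sets. In Saline 4, Bmp1 was at 275 CPM with the next Saline library at 211, and Inhbb at 49.7 CPM with the next at 32.3. Smad3 in Saline 2 was at 141 CPM with the next at 153. Smad6 in Saline 3 was at 26.0 CPM with the next at 20.5. Acvr1 in TLQP21 4 was at 84.6 CPM with the next at 63.3. Bmp8a in TLQP21 1 was at 0.582 CPM with the next at 0.892.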

How the results depend on the processing

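Under every alternative 0 members were called in the comparison of TLQP21 with Saline. With no filter on low counts, 2 of 47 members had an unadjusted p under 0.05 by edgeR, beside 3.53% of all genes. Over all genes the count of 0 became 4 with DESeq2 and 1 with limma's voom with sample quality weights, all lower in TLQP21, and for the difference between kinds of library it became 19 with DESeq2 and ran from 0 to 73 with 1 library left out. With the replicate number as a block, 0 members and 0 genes were called and Tgfbr3 turned to -0.030. Deviations of same-numbered libraries correlated at -0.05 to 0.27 and none matched best with its own number, so the numbers were not taken as pairs. Each Saline library matched best with the other-numbered TLQP21 library of its kind, Xist or Y-linked (1 with 2, 2 with 1, 3 with 4 and 4 with 3). With the kind of library as a covariate, 0 members and 0 genes were called. In that edgeR fit 0 members had an unadjusted p under 0.05, beside 4% of all genes. Of 447 log2 fold changes of the 25 named members under alternatives, 406 kept their direction and 41 turned. limma gave Smad3 -0.035, Acvr1 -0.10, Inhba -0.19, Tgfbr3 -0.071, Smad2 -0.020, Bmpr1a -0.053 and Bmpr2 -0.24, and Bmp1 was at -0.00051 with DESeq2 and -0.0015 with RLE scaling. Without Saline 4 and TLQP21 4 the values were Tgfb1 0.057, Inhbb 0.030, Smad3 -0.017, Acvr1 -0.075, Inhba -0.044, Smad7 0.043, Smad2 -0.032, Bmpr1a -0.13 and Bmpr2 -0.19. With 1 library left out, the ranges that crossed 0 were -0.037 to 0.11 for Bmp1, -0.024 to 0.095 for Smad3, -0.099 to 0.089 for Acvr1, -0.29 to 0.0048 for Smad6, -0.070 to 0.21 for Inhba, -0.12 to 0.022 for Bmp4, -0.31 to 0.26 for Tgfbr3, -0.26 to 0.053 for Smad7, -0.034 to 0.11 for Smad2, -0.012 to 0.10 for Tgfb3, -0.076 to 0.20 for Bmpr1a, -0.033 to 0.043 for Tgfbr2 and -0.17 to 0.18 for Bmpr2. The cause of these turns was not tested. With 4 libraries in each group, the 95% interval reached past 2-fold for 7 of 37 members, and 12 of the 48 had under 100 reads in all, where depth limits what can be seen.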
